A study of Mus musculus with 40 samples.

Results

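The genes described here are 42 mouse genes of DNA replication and deoxynucleotide synthesis, out of 39012 genes in the deposited tables. They were chosen by name from textbook roles, but with earlier results of these data known. Shares among them beside those of all genes are therefore description, not a test. All 42 were found by Ensembl ID and all passed the filter on low counts in each of the 6 comparisons. They were measured in bulk RNA of 40 mouse tumors grown from EMT-6, a single mammary carcinoma line. Its cells were placed in the mammary pad of female Balb/C mice aged 8 to 12 weeks, which have an intact immune system. Doses were given by vein on days 0, 1 and 2, the first of them 20 days after inoculation when tumors averaged about 400 mm3, and tumors were taken on day 6. Each of the 4 groups had 10 libraries, from mice that received an inactive isotype control of the PD-L1 antibody (400 ug), a trap control labelled anti-PD-L1 (mut)/TGFβ trap (492 ug), anti-PD-L1 (400 ug), or the bifunctional anti-PD-L1/TGFβ trap M7824 (492 ug). M7824 joins an antibody against the checkpoint ligand PD-L1 to the outer part of a TGF-β receptor, which binds TGF-β.

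The libraries stand in 2 sets that the labels do not name. Set 1 holds libraries C0449 to C0464 (all 10 isotype control and 6 trap control libraries), and set 2 holds C0465 to C0488 (4 trap control, 10 anti-PD-L1 and 10 bifunctional libraries). Total expected counts ran from 13495835 to 25108601 in set 1 and from 21987948 to 27658263 in set 2. Structural RNA (7SL and mitochondrial ribosomal RNA) took 29.7% to 62.3% of the counts in set 1 and 11.7% to 18.0% in set 2. Treatments were therefore compared within a set. Library numbers run with treatment inside each set, so treatment cannot be told apart from any order of handling that the numbers may reflect. The bifunctional libraries C0479 and C0484 and the trap control library C0463 carried high levels of skeletal muscle or skin genes, so each count that leads a comparison is also given without them. Of the markers of an epithelial tumor, the keratin gene Krt8 had a median of 99.2 TPM (a length-corrected share of transcripts) in anti-PD-L1 tumors, while Epcam and Cdh1 were low there, at 0.71 and 0.38 TPM.

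DNA replication begins when the origin recognition complex, with Cdc6 and Cdt1, loads the MCM2-7 helicase on DNA in G1. At the G1/S transition cyclin E kinase and E2F transcription factors turn on both the firing of origins and the genes of the replication machinery. Cdc45 and the GINS complex then activate the helicase, DNA polymerase alpha with primase starts each strand, and polymerases delta and epsilon extend it on the PCNA clamp, which the RFC complex loads. Ribonucleotide reductase, thymidylate synthase and thymidine kinase supply the deoxynucleotides. Transcripts of these genes are abundant in dividing cells and low in resting ones, in tumor and host cells alike. In bulk RNA, fewer dividing cells and less RNA per dividing cell cannot be told apart.

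Many promoters of this group carry short sites of the kind that E2F factors bind. RefSeq promoter windows of GRCm38.p6 (250 bases before to 50 bases after the start) were at hand for 34 of the 42 genes. The 8-letter motifs TTTCCCGC, TTTGGCGC, TTTCGCGC and TTTGCCGC were searched on both strands, and matches may overlap. At least 1 match lay in the windows of 13 of the 34 genes (38.2%), against 2.6% of all 27025 genes with a window and 4.4% of the 11272 genes tested in set 2. A match is a description of letters, not a shown binding site. The 5 stretches below are the 170 bases just before the start of the called genes with the smallest p in the first comparison that hold a match there. They are written from 5′ to 3′ on the gene's own strand with the matches in capitals, and in GRCm38.p6 they lie at chrX:93632156-93632325 (minus strand, Pola1), chr8:75109339-75109508 (plus, Mcm5), chr1:128359706-128359875 (minus, Mcm6), chr5:151651209-151651378 (minus, Rfc3) and chr11:98907981-98908150 (plus, Cdc6).
Pola1: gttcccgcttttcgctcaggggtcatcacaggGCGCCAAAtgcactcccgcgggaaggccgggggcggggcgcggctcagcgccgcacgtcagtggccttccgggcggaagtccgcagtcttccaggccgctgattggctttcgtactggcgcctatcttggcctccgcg
Mcm5: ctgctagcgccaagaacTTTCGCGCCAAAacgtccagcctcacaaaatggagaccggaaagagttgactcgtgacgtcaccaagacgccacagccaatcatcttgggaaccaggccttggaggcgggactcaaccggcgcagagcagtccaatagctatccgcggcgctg
Mcm6: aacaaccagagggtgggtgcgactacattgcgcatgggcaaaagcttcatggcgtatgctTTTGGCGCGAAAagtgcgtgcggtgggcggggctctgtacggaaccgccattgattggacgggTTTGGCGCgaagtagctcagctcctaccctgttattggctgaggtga
Rfc3: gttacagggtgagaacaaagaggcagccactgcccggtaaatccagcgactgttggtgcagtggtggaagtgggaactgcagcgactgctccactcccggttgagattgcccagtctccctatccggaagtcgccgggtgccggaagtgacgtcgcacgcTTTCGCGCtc
Cdc6: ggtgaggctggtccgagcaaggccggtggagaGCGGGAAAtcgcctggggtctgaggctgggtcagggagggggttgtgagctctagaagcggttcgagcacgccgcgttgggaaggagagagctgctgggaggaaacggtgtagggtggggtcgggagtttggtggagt
In Mcm5 and in Mcm6 a match on each strand overlaps the other in 1 longer run, and Mcm6 has a further match 47 bases before the start. The match in Rfc3 begins 10 bases before the start. Among the genes with a window, 11 of the 30 that fell in the first comparison (36.7%) and 2 of the 4 that did not pass its test (50%) held a match.

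The first comparison set bifunctional against anti-PD-L1 tumors in set 2, which differ by the presence of the TGFβ trap. Replication and nucleotide synthesis transcripts were lower in bifunctional tumors in each of the 9 roles on the count scale. By edgeR's quasi-likelihood test, 37 of the 42 genes fell and none rose, with an adjusted p threshold of 0.05 over all 15704 genes tested, where 13.1% of genes were called lower. The log2 fold changes ran from -0.59 (Gins1) to -0.01 (E2f1), with a median of -0.33 against 0.01 for all genes, and only those of Lig1 and E2f1 crossed 0 when the counts were scaled or filtered another way. The libraries overlapped for all but 1 of the 42 genes, Pole2 (no overlap in this direction occurred in 0.172% of all genes). For 29 of the 42 all 10 bifunctional libraries lay below the anti-PD-L1 median, which held for 6.89% of all genes.

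**Figure D1:**
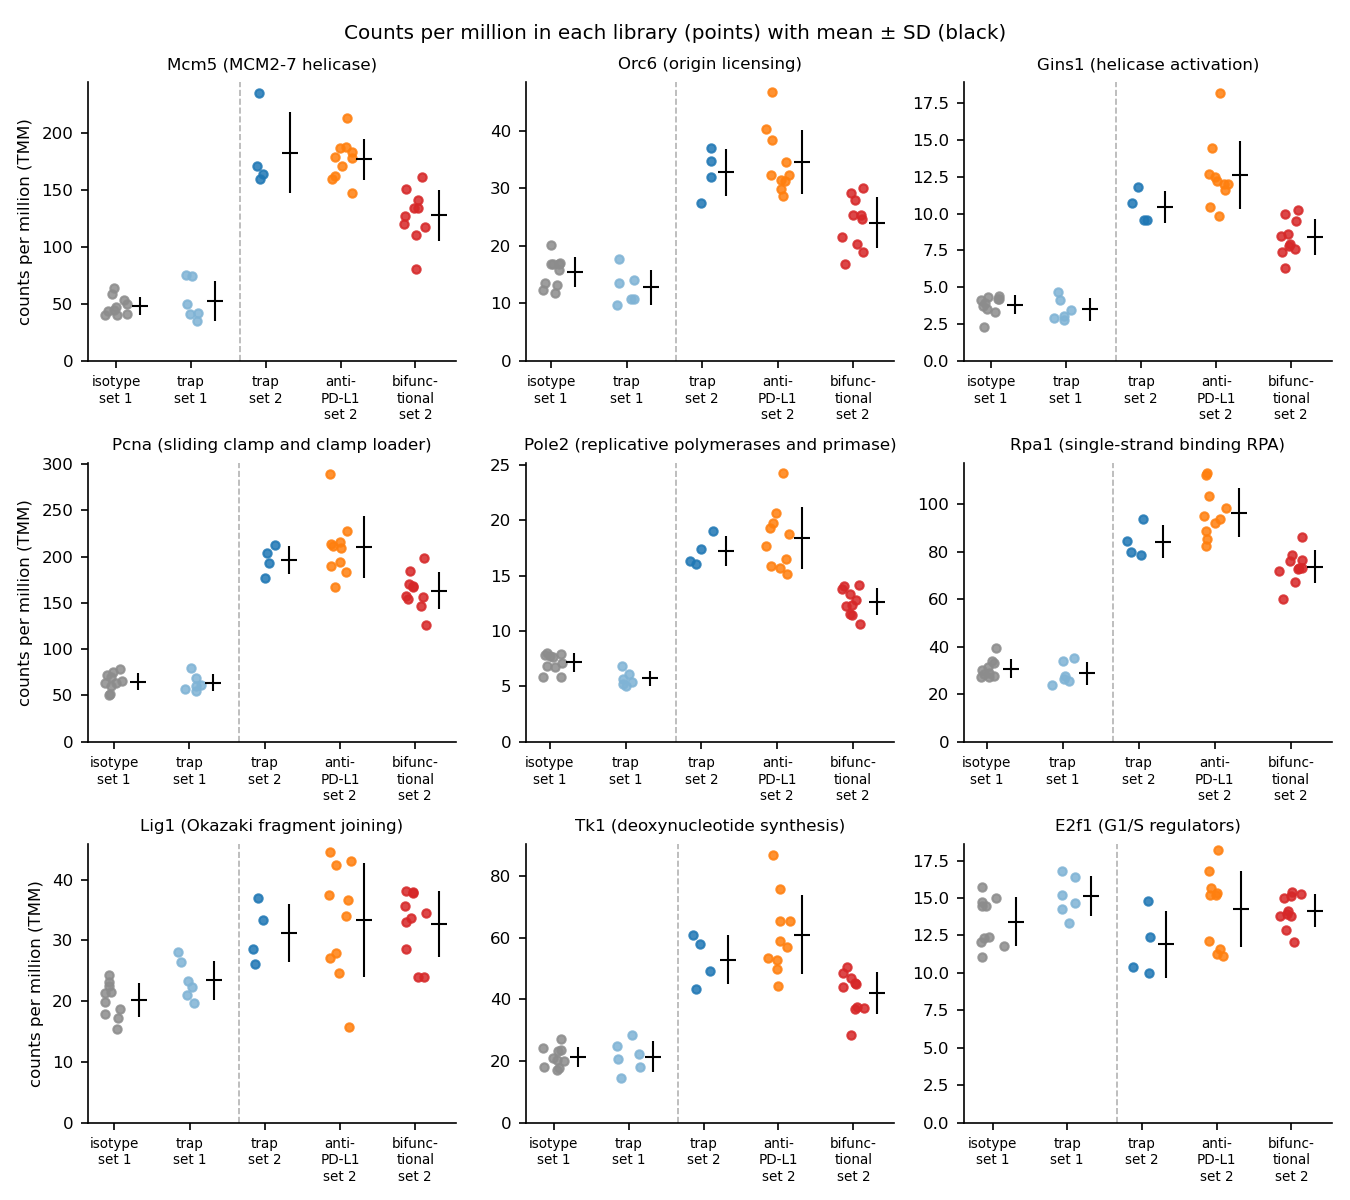
CPM (counts relative to the library total, TMM-scaled within each library set, linear axis from 0) of 9 genes, 1 from each role, in every library (points) with the group mean ± SD (black). Right of the dashed line, the 10 bifunctional libraries of set 2 lie low for Mcm5, Orc6, Gins1, Pcna, Pole2, Rpa1 and Tk1, while for Lig1 and E2f1 they lie within the range of the anti-PD-L1 libraries. Levels left and right of the dashed line were scaled apart and are not to be compared.

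The number of genes called changed when a pair of libraries was left out together, and with the scale. No other pair was left out. Leaving out any 1 of the 20 libraries left 31 to 37 of the 42 genes lower, with a median of -0.35 to -0.29. C0479 was the lowest bifunctional library for 37 of the 42 genes, and without C0479 and C0484 19 genes fell, with a median of -0.26 (3.04% of all genes were lower then). When marker scores of muscle, skin and fat entered as covariates, 21 genes fell (3.43% of all genes). All genes called, in either direction, were 4014 in the main fit, 760 without that pair and 782 with the covariates. At an unadjusted p under 0.05 by edgeR, 37 of the 42 genes were lower in the main fit. At that level 36 were lower without the pair and 37 with the covariates. The share of all genes lower at that unadjusted level is not given here. In the deposited TPM values, on the log2(TPM + 1) scale in limma, none of the 42 genes passed the test, 10 were above 0 and their median was -0.04. All genes had a median of 0.18 there, 0.33% of them were called lower, and 98.2% of the calls were higher, against 48.6% by edgeR on counts. Relative to the median of all genes the 42 genes were at -0.22 in TPM and at -0.34 in the counts. After the TPM values were scaled by median-of-ratios factors, 29 of the 42 genes fell with a median of -0.24, and 9.69% of all genes were lower.

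**Figure D2:**
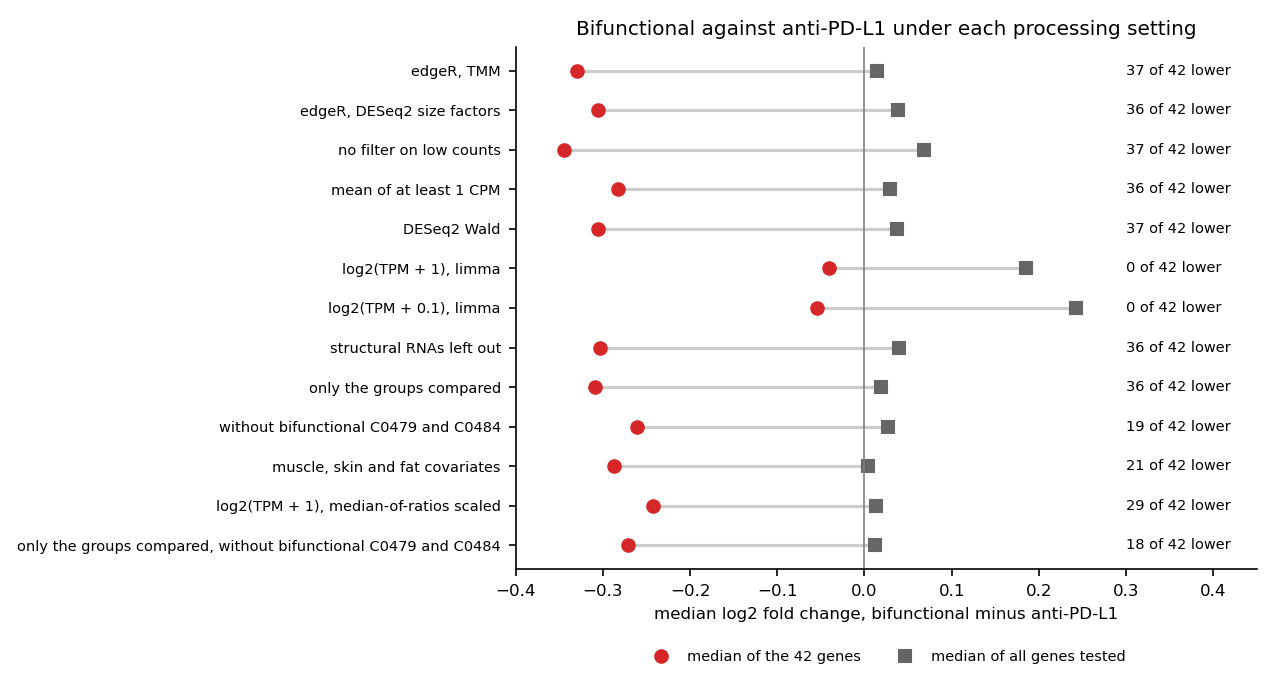
Median log2 fold change of the 42 genes (red circles) and of all genes tested (grey squares), bifunctional minus anti-PD-L1, under each way of processing, with the number of the 42 that passed the test as lower written at the right. The red circle lies left of the grey square in every row, and the 2 rows of unscaled TPM place both medians further right, with 0 genes called.

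All 6 genes of the MCM2-7 helicase, the ring that unwinds DNA, fell (median log2 fold change -0.34). Mcm5 ran from 146.7 to 212.9 CPM with a median of 178.3 in anti-PD-L1 tumors and from 80.2 to 160.7 with a median of 130.4 in bifunctional tumors. Every bifunctional library was below the anti-PD-L1 median, and the 2 ranges overlapped between 146.7 and 160.7. The log2 fold change was -0.47 ± 0.10 (SE, n = 10 per group; adjusted p = 0.0055). Mcm6 ran from 111.5 to 157.5 CPM (median 124.6) and from 66.9 to 117.1 (median 100.4), a log2 fold change of -0.37 ± 0.08 (adjusted p = 0.0064). Its lowest bifunctional library, C0479, stood far under the next. Mcm7 ran from 123.3 to 149.2 CPM and from 66.3 to 123.9, with a narrow overlap, and changed by -0.35 ± 0.09 (adjusted p = 0.012). Mcm7 shares exon sequence with genes on the opposite strand, as do Orc1, Orc6, Cdc45, Gins2, Rfc2, Rfc4, Rfc5, Pole, Fen1, Lig1, Tk1 and Ccne2. The strand used in counting is not given in the sources used here, so for these genes reads of the partner may be included. Mcm2, Mcm3 and Mcm4 fell by 0.33, 0.28 and 0.25 on the log2 scale.

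Of the 4 origin licensing genes 3 fell. Orc6, a subunit of the origin recognition complex, ran from 28.7 to 46.8 CPM (median 32.3) in anti-PD-L1 tumors and from 16.9 to 30.1 (median 25.0) in bifunctional tumors, with overlap between 28.7 and 30.1. Its log2 fold change was -0.53 ± 0.11 (adjusted p = 0.0048). Cdc6, the loader of the helicase, ran from 17.6 to 27.6 CPM and from 10.9 to 21.8, a log2 fold change of -0.47 ± 0.11 (adjusted p = 0.0084). Orc1 fell by 0.33 (adjusted p = 0.025). Cdt1, the second licensing factor, ran from 30.6 to 39.97 CPM and from 16.9 to 38.9 and did not pass the test (log2 fold change -0.21, 95% interval -0.43 to 0.02). For Cdt1 7 of the 10 bifunctional libraries were below the anti-PD-L1 median.

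Of the 6 helicase activation genes 5 fell, with the largest spread among them of any role. Gins1, a subunit of the GINS complex, had the largest fall of all 42 genes. It ran from 9.87 to 18.2 CPM (median 12.1) in anti-PD-L1 tumors and from 6.34 to 10.3 (median 8.22) in bifunctional tumors, a log2 fold change of -0.59 ± 0.10 (adjusted p = 0.0033). Its partner Gins2, in the same complex, changed by -0.11 with a 95% interval of -0.25 to 0.03 and did not pass the test; it ran from 24.8 to 30.7 CPM and from 18.9 to 29.9. The other 2 subunits fell, Gins3 by 0.29 and Gins4 by 0.31 (Gins4 adjusted p = 0.0098). Cdc45, which joins GINS on the helicase, ran from 23.6 to 40.5 CPM and from 16.9 to 30.8 and changed by -0.46 ± 0.11 (adjusted p = 0.0087). Mcm10 fell by 0.29.

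Of the 6 genes of the sliding clamp and its loader 5 fell. Pcna, the clamp, was the most abundant of the 42 per transcript length, with a median of 46.1 TPM in anti-PD-L1 tumors. It ran from 167.1 to 289.6 CPM (median 210.2) there and from 126.2 to 198.5 (median 162.3) in bifunctional tumors, a log2 fold change of -0.37 ± 0.08 (adjusted p = 0.0077). All 10 bifunctional libraries were below the anti-PD-L1 median. The small loader subunits Rfc2 to Rfc5 fell by 0.39, 0.45, 0.31 and 0.36. Rfc2 ran from 36.8 to 54.5 CPM and from 24.4 to 39.9 (adjusted p = 0.0072), and Rfc5 from 32.7 to 46.0 and from 21.6 to 35.4 (adjusted p = 0.0071). The large subunit Rfc1 ran from 57.2 to 69.5 CPM and from 51.8 to 69.0 and changed by -0.06, with a 95% interval of -0.16 to 0.04. That interval is the narrowest of the 42 and lies above the estimate for each small subunit.

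All 8 genes of the replicative polymerases and primase fell, by 0.27 to 0.54. Pole2, the second subunit of polymerase epsilon, was the gene with no overlap: it ran from 15.2 to 24.3 CPM (median 18.2) in anti-PD-L1 tumors and from 10.6 to 14.1 (median 12.6) in bifunctional tumors. Its log2 fold change was -0.54 ± 0.08 (adjusted p = 0.0024), the smallest p of the 42. Without C0479 and C0484 it was -0.48 (adjusted p = 0.0062). Pola1, the catalytic subunit of polymerase alpha, ran from 59.4 to 80.3 CPM and from 39.9 to 62.2 and changed by -0.40 ± 0.07 (adjusted p = 0.0035). Prim1, the catalytic subunit of primase, ran from 22.4 to 38.6 CPM and from 14.3 to 24.5 and changed by -0.48 ± 0.10 (adjusted p = 0.0057). Pole, Pold2, Prim2, Pola2 and Pold1 fell by 0.31, 0.33, 0.34, 0.32 and 0.27.

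The 3 subunits of RPA, which coats single-stranded DNA, all fell. Rpa1 ran from 82.4 to 113.0 CPM (median 94.1) in anti-PD-L1 tumors and from 60.0 to 86.2 (median 73.0) in bifunctional tumors, a log2 fold change of -0.39 ± 0.07 (adjusted p = 0.0027). Rpa3 ran from 26.6 to 48.2 CPM and from 16.02 to 31.7 and changed by -0.51 ± 0.11 (adjusted p = 0.0060), and Rpa2 changed by -0.31. The 2 genes that finish Okazaki fragments differed. Fen1, the flap nuclease, ran from 52.9 to 72.7 CPM and from 31.4 to 57.8 and fell by 0.33 (adjusted p = 0.012). Lig1, the ligase that seals the nick, had one of the widest spreads. It ran from 15.7 to 44.5 CPM (median 35.4) and from 23.9 to 38.1 (median 34.1), a log2 fold change of -0.03 with a 95% interval of -0.33 to 0.27, an interval that still holds the estimate for Fen1. The direction for Lig1 changed with the scaling and with the library left out: it was 0.05 in scaled TPM and likewise 0.05 without the anti-PD-L1 library C0475.

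All 4 genes of deoxynucleotide synthesis fell. Tk1, thymidine kinase, ran from 44.4 to 87.0 CPM (median 58.0) in anti-PD-L1 tumors and from 28.5 to 50.5 (median 44.6) in bifunctional tumors, a log2 fold change of -0.54 ± 0.11 (adjusted p = 0.0058). Thymidine kinase salvages thymidine and is made mainly in S phase. Rrm1, the large subunit of ribonucleotide reductase, ran from 157.7 to 188.0 CPM and from 101.1 to 169.3 and changed by -0.33 ± 0.08 (adjusted p = 0.0090), close to the -0.34 of its partner Rrm2. Tyms, thymidylate synthase, fell by 0.26 (adjusted p = 0.017).

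Of the 3 G1/S regulators the cyclins fell and E2f1 did not. Ccne2 ran from 15.8 to 27.6 CPM and from 11.8 to 19.3 and changed by -0.37 ± 0.11 (adjusted p = 0.019). Ccne1 ran from 16.5 to 21.8 CPM and from 11.8 to 19.6 and changed by -0.33 ± 0.10 (adjusted p = 0.026). E2f1, the transcription factor that regulates many of the other genes, ran from 11.1 to 18.2 CPM (median 15.2) and from 12.0 to 15.4 (median 14.02), the largest p of the 42. Its log2 fold change was -0.01 with a 95% interval of -0.21 to 0.18, which does not hold the median of the 42 genes, and it was 0.01 with DESeq2's size factors.

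**Figure D3:**
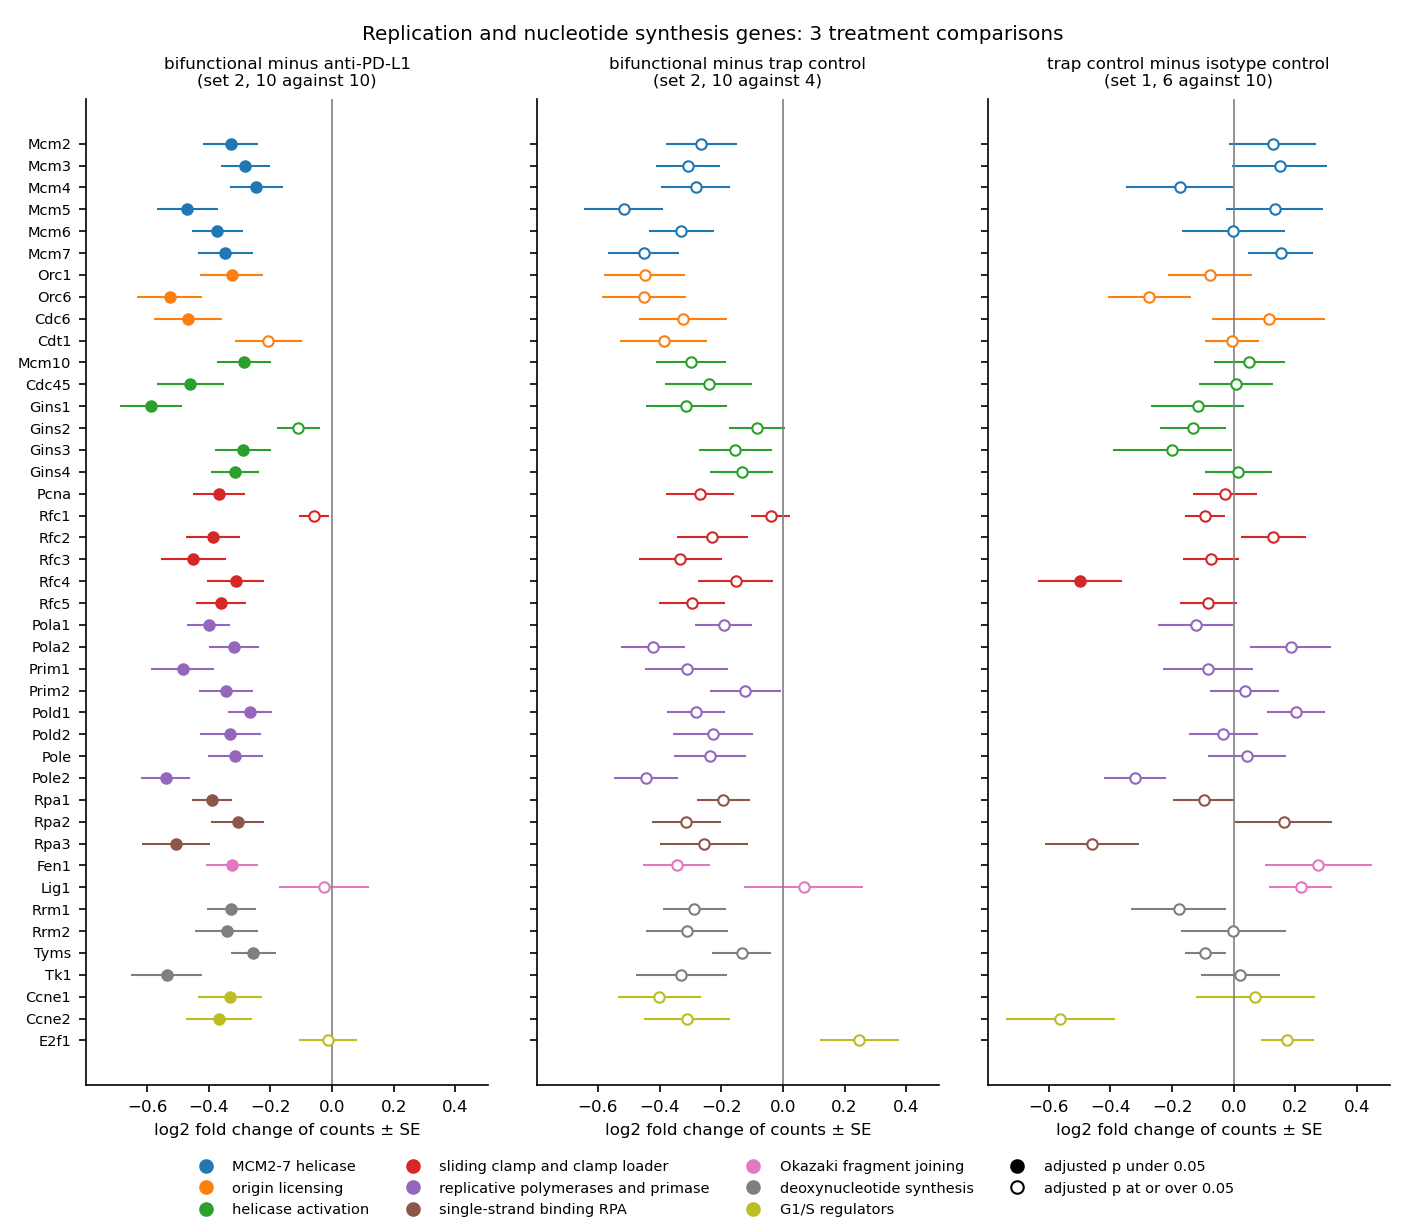
Log2 fold change ± SE of the counts for each of the 42 genes, coloured by role, in 3 comparisons, with filled points for adjusted p under 0.05. Bifunctional against anti-PD-L1 has 37 filled points, all left of 0, bifunctional against trap control has none, and trap control against isotype control has 1, Rfc4.

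Averaged over the 42 genes, log2(CPM + 1) was from 5.23 to 5.58 in the anti-PD-L1 libraries with a median of 5.36, and from 4.65 to 5.22 in the bifunctional libraries with a median of 5.11. C0479 was lowest at 4.65. The 4 trap control libraries of set 2 ran from 5.23 to 5.48. The coefficient of variation had a median of 13.3% over the genes in anti-PD-L1 tumors and 14.9% in bifunctional tumors, and its highest value in either group was 27.98%.

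**Figure D4:**
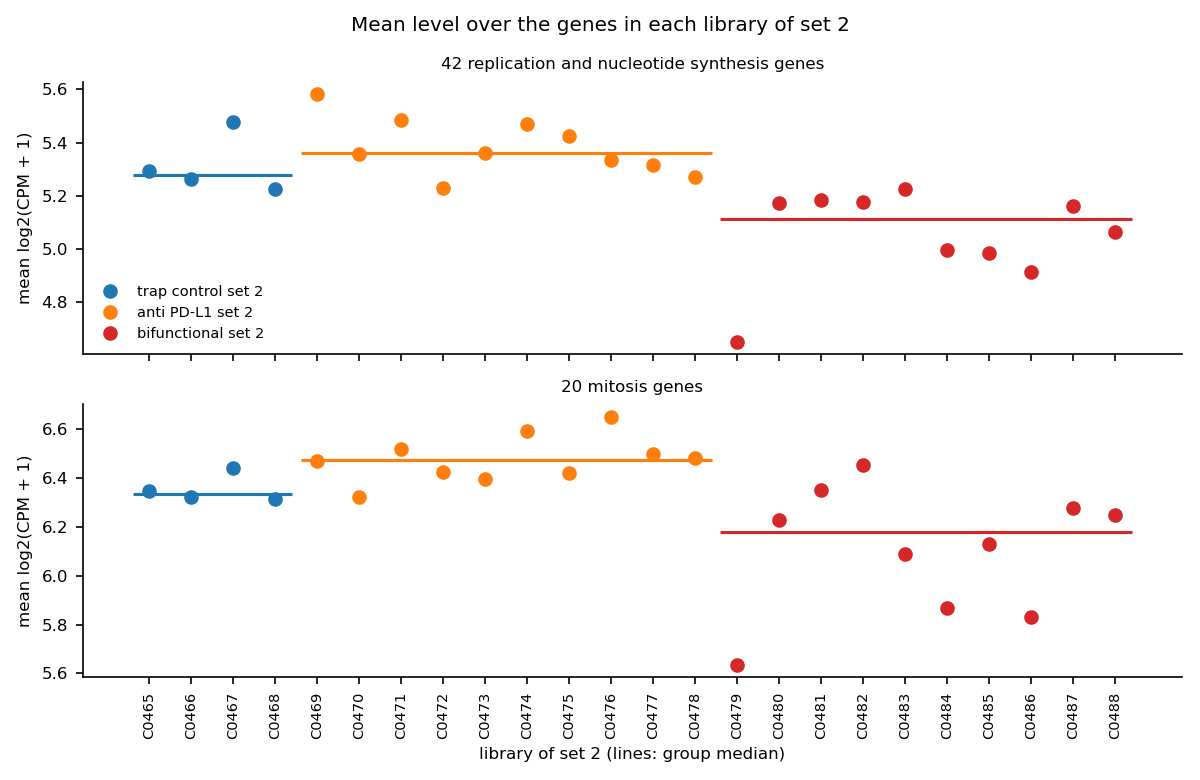
Mean log2(CPM + 1) of the 42 genes (top) and of 20 mitosis genes (bottom) in each library of set 2, with group medians as lines. In the top panel every bifunctional library lies under every anti-PD-L1 library, C0479 is the lowest at 4.65, and C0469 is the highest at 5.58.

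Genes of the same pathways that were not among the 42 moved in part the same way. Of 32 other origin and fork factors 16 fell and none rose (median log2 fold change -0.24), where 13.1% of all genes were called lower and 12.4% higher. Among the 16 were Tipin, a fork protection factor (-0.50 ± 0.09, adjusted p = 0.0037), Topbp1, which helps fire origins (-0.36 ± 0.07, adjusted p = 0.0044), and Orc2 (-0.40 ± 0.08, adjusted p = 0.0044). Of 21 other genes of nucleotide metabolism 12 fell and 1 rose (median -0.33). Adsl, of purine synthesis, was at -0.44 and Nme1, a nucleoside diphosphate kinase, at -0.51, whereas Samhd1, which degrades deoxynucleotides, was the one that rose (0.24 ± 0.07, adjusted p = 0.015). Of 20 genes of S phase control 6 fell and 2 rose (median -0.15), and the 2 that rose are a share near that of all genes called higher. They were the pocket protein genes Rb1 (0.37 ± 0.10, adjusted p = 0.017) and Rbl2 (0.28 ± 0.06, adjusted p = 0.0068), which restrain E2F. Of 20 mitosis genes 16 fell and none rose (median -0.39), with Ndc80 at -0.50, Ccnb1 at -0.51 and Aurkb at -0.40. Without C0479 and C0484 the genes that fell were 7 of 32, 6 of 21, 2 of 20 and 8 of 20 in these lists, and the rise of Samhd1 was not called.

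Markers of several host cell types rose in the same comparison, in which 12.4% of all genes were called higher. Of 9 T cell markers tested (10 listed) 6 rose with a median log2 fold change of 1.15, and their summed level ran from 8.11 to 11.6 CPM in anti-PD-L1 and from 9.31 to 23.3 CPM in bifunctional tumors. Of 8 macrophage markers 5 rose (median 0.57; 703.7 to 1419 CPM against 921.6 to 2405 CPM), and of 6 fibroblast markers 2 rose (median 0.81; 3665 to 9266 CPM against 6444 to 16740 CPM). Of 6 skeletal muscle markers 5 rose (median 4.53), with summed levels from 0.937 to 232.7 CPM and from 0.787 to 3487 CPM. Their mean log2(CPM + 1) was 8.63 in C0484, 7.78 in C0479 and at most 4.09 in the other bifunctional libraries. The highest anti-PD-L1 library was at 4.95. Both keratinocyte markers tested (of 4) rose (median 4.18; 2.78 to 13.5 CPM against 1.64 to 2156 CPM). Over the 4 listed, mean log2(CPM + 1) was 9.07 in C0479 and at most 2.01 in the other bifunctional libraries. Median summed levels were 5.57 CPM in anti-PD-L1 and 8.49 CPM in bifunctional tumors. Marker counts without C0479 and C0484 are not given here. Of 5 adipocyte and 5 endothelial markers 1 each rose, a share close to that of all genes. The 6 carcinoma markers had a median log2 fold change of 0.76 with 4 of the 6 above 0, and summed to 439.8 to 1015 CPM and 328.9 to 557.7 CPM. Of them Cdh1 rose by 1.46 (adjusted p = 0.034) and Krt8 fell by 0.59 (adjusted p = 0.014). Beyond the covariates given above, the part of these cell types in the lower replication transcripts was not tested.

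The second comparison set the bifunctional against the trap control tumors of set 2, which differ by binding of PD-L1, with 10 libraries against 4. By edgeR none of the 42 genes passed the adjusted test, as for nearly all genes (0.00637% of 15704 were called). At an unadjusted p under 0.05, 28 of the 42 were lower, where 8.63% of all genes were, and the median log2 fold change was -0.29. DESeq2 called 4 of them lower (Pole2, Pola2, Mcm5 and Mcm7; 0.688% of all genes). The trap control library C0467 was the highest of its 4 for 35 of the 42 genes. Without it 11 genes were lower at that unadjusted level and the median was -0.23, and without C0479 and C0484 19 were. The share of all genes lower in those fits is not given here, so these counts have no background beside them. In log2(TPM + 1) none of the 42 was lower at that level, where 0.652% of all genes were, and their median was -0.07. The first 3 comparisons share libraries, so their values are not independent of one another.

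For 2 genes every bifunctional library was below every trap control library, which held for 0.554% of all genes. Mcm7 was at 127.0, 151.3, 165.9 and 128.3 CPM in trap control libraries C0465 to C0468 and reached 123.9 at most in bifunctional tumors (log2 fold change -0.45 ± 0.12, edgeR adjusted p = 0.13). Pole2 was at 16.4, 17.4, 19.0 and 16.03 CPM in the 4 libraries against at most 14.1 (log2 fold change -0.45 ± 0.10, edgeR adjusted p = 0.11). Mcm5 had the lowest log2 fold change, -0.52 ± 0.13 (edgeR adjusted p = 0.12), but its trap control values of 171.1, 163.8, 234.8 and 159.5 CPM rest in part on C0467. Lig1 and E2f1 were the 2 genes above 0, at 0.07 (95% interval -0.33 to 0.47) and 0.25 (95% interval -0.01 to 0.51).

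The third comparison set anti-PD-L1 against trap control tumors of set 2. None of the 42 genes passed the test in edgeR (0.0127% of all genes did), and 2 had an unadjusted p under 0.05 (4.92% of all genes). These were Rpa1 and Pola1, both higher with anti-PD-L1, by 0.20 (95% interval 0.02 to 0.38) and 0.21 (95% interval 0.01 to 0.40). The median over the 42 genes was 0.08 against 0.01 for all genes. With 4 trap control libraries the intervals were wide: that of Mcm5 ran from -0.32 to 0.22 and that of Rpa2, the gene with the largest p, from -0.24 to 0.23.

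The fourth comparison set trap control against isotype control tumors in set 1 (6 against 10 libraries), which asks for the trap without PD-L1 binding. The 42 genes had a median log2 fold change of 0.00, 19 above and 23 below 0. By edgeR 1 gene fell, Rfc4, and none rose, where 4.15% of 14183 genes were lower and 3.19% higher. Rfc4, a small subunit of the clamp loader, ran from 6.60 to 10.9 CPM (median 8.51) in isotype control tumors and from 4.07 to 7.74 (median 6.14) in trap control tumors, with overlap (log2 fold change -0.50 ± 0.14, adjusted p = 0.039). Its exons overlap those of Eif4a2 on the opposite strand. The call was lost in 10 of the 16 fits that left out 1 library, the fit without C0463 among them, with adjusted p between 0.033 and 0.077 over the 16. Ccne2 (-0.56 ± 0.18, edgeR adjusted p = 0.058), Pole2 (-0.32 ± 0.10, edgeR adjusted p = 0.059) and Rpa3 (-0.46 ± 0.15, edgeR adjusted p = 0.0695) came next and were called by DESeq2.

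None of the 6 MCM genes passed the test in set 1, and for each of them the ranges of the 2 groups overlapped. Mcm5 ran from 40.4 to 63.6 CPM in isotype control and from 35.1 to 75.1 CPM in trap control tumors, and Mcm6 from 26.1 to 54.6 and from 25.7 to 53.9. The log2 fold changes were 0.13 (95% interval -0.20 to 0.46) and 0.00 (95% interval -0.35 to 0.35). Pcna was at -0.03 (95% interval -0.24 to 0.19), Tk1 at 0.02 (95% interval -0.25 to 0.29) and Gins1 at -0.12 (95% interval -0.43 to 0.20). None of these intervals holds the estimate that the same gene had in bifunctional against anti-PD-L1 tumors, but those estimates have a spread of their own. This did not hold for all of the 42 genes. The set 1 interval of Mcm4 (-0.54 to 0.19) holds its estimate of -0.25, and that of Rrm1 (-0.50 to 0.15) holds its -0.33. The same was true of Rrm2, Ccne1, Ccne2, Orc6, Rpa3 and Rfc4, among others. In the direct contrast below, Mcm5 was called, while Mcm6, Pcna, Tk1 and Gins1 were not. Rrm2 had the largest p, with a log2 fold change of 0.00. In set 1 trap control tumors C0463, the muscle-rich library, was the highest for 21 of the 42 genes.

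Whether the trap acted differently in the 2 settings was tested directly as a contrast, bifunctional minus anti-PD-L1 in set 2 less trap control minus isotype control in set 1, in a fit of all 40 libraries. The median of the 42 genes was -0.31, and 6 genes were called lower and none higher, where 3.95% of 16174 genes were lower. They were Mcm5 (-0.57 ± 0.18, adjusted p = 0.043), Mcm7 (-0.47 ± 0.14, adjusted p = 0.031), Fen1 (-0.57 ± 0.18, adjusted p = 0.047), Pola2 (-0.47 ± 0.15, adjusted p = 0.041), Pold1 (-0.44 ± 0.11, adjusted p = 0.018) and Rfc2 (-0.49 ± 0.13, adjusted p = 0.0245). Pold1, the catalytic subunit of polymerase delta, shows the pattern. In set 2 anti-PD-L1 libraries ran from 38.2 to 53.7 CPM (median 45.8) and bifunctional libraries from 28.01 to 44.5 (median 38.5). In set 1 the trap control libraries, from 17.7 to 28.2 CPM (median 21.2), were not below the isotype control libraries, whose median was 18.0 and highest value 21.8. For the 6 genes the estimate was below 0 in set 2 and above 0 in set 1. They were picked by this difference, so opposite signs among them follow in part from the choice. Of all 42 genes 23 were below 0 in set 1. Rpa3 had the largest p (-0.02, 95% interval -0.39 to 0.36), being at -0.51 in the first comparison and -0.46 in the fourth.

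Fewer genes were called when some libraries were left out. Only C0463, C0479 and C0484 were left out singly here, so whether other libraries matter as much was not tested. Without C0463 1 gene was called, without C0479 or without C0484 3, and without C0479 and C0484 together 1 (Pold1). In unscaled TPM none was, and the median was -0.05. Among all genes tested, 781 to 952 were called in either direction in the fits without C0463, C0479 or C0484. Without C0479 and C0484 together 522 were. The share of all genes called lower in these fits is not given here. A count of 1 or 3 is therefore not shown to exceed the background. Each side of the contrast lies in its own library set, so the PD-L1 setting and the set cannot be told apart.

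The trap control is the one treatment present in both sets, with 6 libraries in set 1 and 4 in set 2, so it shows how far the sets differ for the same treatment. Set 1 minus set 2, 28 of the 42 genes were lower and 3 higher, where 23.3% and 25.1% of 14456 genes were. The median log2 fold change was -0.60 against -0.01 for all genes. In log2(TPM + 1) 41 of the 42 were lower and none higher, on a scale where 80.9% of 11275 genes were lower and 1.85% higher. For 19 of the 42 every set 1 library was below every set 2 library, which held for 16.9% of all genes. The CPM values of this comparison were scaled over these 10 libraries together and differ from those given above. Pcna was at 71.9, 99.3, 77.2, 75.5, 84.98 and 69.5 CPM in the set 1 libraries C0459 to C0464 and at 144.0, 149.2, 136.3 and 122.9 CPM in set 2, with no overlap (-0.79 ± 0.11, edgeR adjusted p = 0.00020). Fen1 (-0.93 ± 0.21), Mcm5 (-0.96 ± 0.22) and Mcm6 (-0.88 ± 0.19) were lower by similar amounts. Leaving out each of the 10 libraries in turn gave 19 genes lower without C0467 and 32 without C0463.

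E2f1, Tyms and Lig1 were the genes higher in set 1. E2f1 was at 17.9, 16.6, 20.6, 19.1, 20.8 and 18.6 CPM in set 1 and at 10.5, 7.31, 7.03 and 8.65 CPM in set 2 (1.18 ± 0.13, edgeR adjusted p = 4.9e-05), again with no overlap. Tyms was at 61.1, 60.4, 59.8, 62.2, 70.4 and 63.4 CPM against 44.6, 43.0, 50.2 and 43.8 CPM (0.47 ± 0.08, edgeR adjusted p = 0.00072). Both moved against the rest of their pathway. The directions depended on the unit: in log2(TPM + 1) E2f1 was at -0.06, Tyms at -1.73 and Lig1 at -0.64, on a scale where all genes had a median of -0.85. After median-of-ratios scaling of the TPM values E2f1 stayed higher (0.65), as did Lig1 (0.28), and Tyms was lower (-0.58). For Tyms the count per TPM, which follows the transcript length that the authors' quantification assigned, was 1.23 higher on the log2 scale in set 1 than in set 2, relative to each library's median over 4586 genes. The 5th to 95th percentile of that value over all genes was -0.28 to 0.27. The same value for Tyms was 0.36 between bifunctional and anti-PD-L1 tumors, where those percentiles were -0.06 and 0.07, so a count of Tyms does not stand for the same transcript length in each group.

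**Figure D5:**
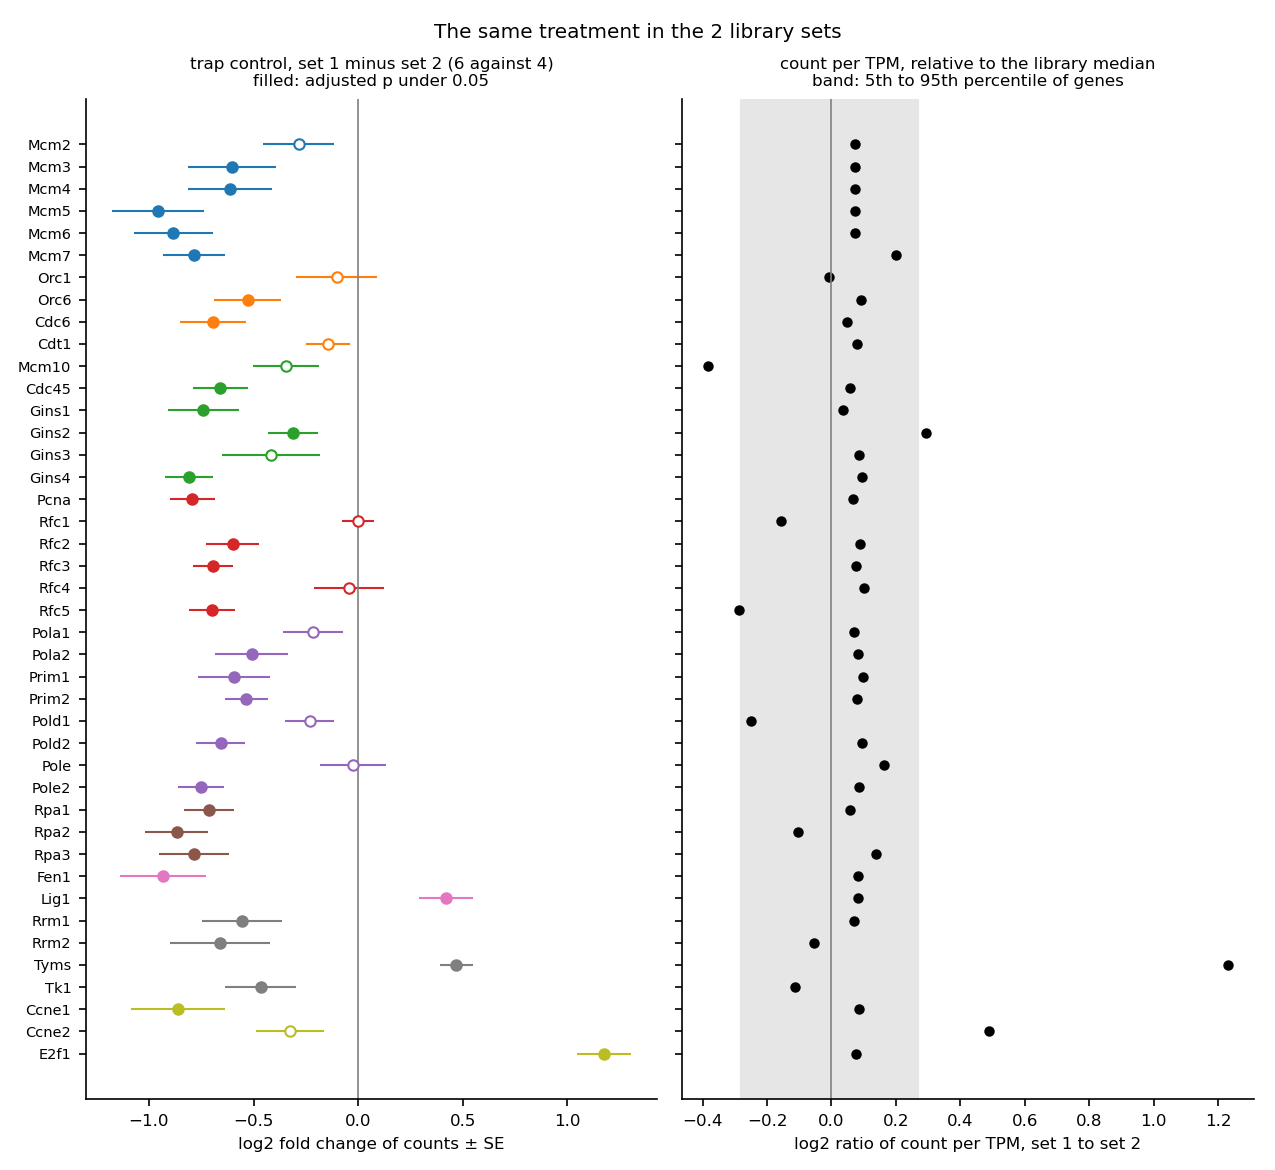
Left, log2 fold change ± SE of counts for the trap control in set 1 minus set 2 (6 against 4 libraries), coloured by role, filled for adjusted p under 0.05; right, the log2 ratio of count per TPM between the sets for each of the 42 genes, with the 5th to 95th percentile of all 4586 genes as a grey band. On the left 28 filled points lie below 0 and E2f1, Tyms and Lig1 above it, and on the right Tyms stands apart at 1.23.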

How the data were processed

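Per the submitters' processing notes, reads were handled with Bowtie2 2.3.1 and RSEM 1.2.31 on mm10; the annotation release and the strand used in counting are not given in the sources used here. The authors deposited RSEM expected counts and TPM values for 39012 genes in 40 libraries of ribosome-depleted RNA. The deposited expected counts were rounded to whole numbers (14.0% were not whole). Symbols were matched to 37607 IDs (96.4%). The 42 genes and the other lists were chosen with earlier results of these data known.

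Within each library set, genes passing edgeR's filterByExpr were scaled by TMM and tested with edgeR 4.0.16 (glmQLFit and glmQLFTest, R 4.3.3) over all genes, with Benjamini-Hochberg adjustment at 0.05. Bifunctional, anti-PD-L1 and trap control libraries of set 2 shared 1 fit of 24 libraries, set 1 had a fit of 16, the trap control of both sets a fit of 10, and the difference of trap effects a fit of all 40 with 5 group means. The script was tested on simulated data. Alternatives were DESeq2 1.42.0 and its size factors, other filters, structural RNAs left out, fits of only the groups compared, limma 3.58.1 on log2(TPM + 1) and log2(TPM + 0.1) for genes with a mean of at least 0.5 TPM, and single libraries left out in turn (20 in the first comparison, the 4 trap control libraries in the others of set 2, 16 in set 1, 10 for the trap control between sets and 3 for the difference of trap effects). Muscle, skin and fat marker scores as covariates and fits without C0479 and C0484 were further alternatives. TPM scaled by median-of-ratios factors, and some of the fits that left out libraries, were added after seeing the data. No 2 libraries of a group and set differed by only sampling noise (smallest chi-square per degree of freedom 9.63 over 156 pairs). Per the labels each library is a tumor grown in a mouse, but separate mice are not stated, so p-values measure only the spread between these samples, which may be technical.

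Genes with values in full were, for each role, the 2 with the smallest p in the first comparison (3 in roles of over 5 genes), and up to 4 called genes per direction in the others, plus the gene with the largest p. Genes outside this rule were named after their values were seen. Motifs and sequences came from RefSeq promoter windows of GRCm38.p6.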

Additional observations from a re-analysis of the deposited data

Results flagged for a closer look

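Among 28 genes in 5 groups (140 combinations), 5 had a library far from the others of its group by Dixon's criterion. Chance marks about 1 in 20, so the 5 found are no more than that rate would mark. Mcm5 was 234.8 CPM in trap control library C0467 of set 2, where the next was 171.1. Mcm6 was 66.9 CPM in bifunctional library C0479, where the next was 92.7. Pcna was 289.6 CPM in anti-PD-L1 library C0469, where the next was 227.8. Gins1 was 2.28 CPM in isotype control library C0452 (next 3.29), and Tyms was 56.9 CPM in trap control library C0463 of set 1 (next 50.04), with CPM scaled within set 1.

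In the fit of all 40 libraries, the difference between the trap effect with anti-PD-L1 (set 2) and without it (set 1) passed edgeR's adjusted test for 6 of the 42 genes: Mcm5 at -0.572, Mcm7 at -0.469, Rfc2 at -0.485, Pola2 at -0.472, Pold1 at -0.437 and Fen1 at -0.567 on the log2 scale. The setting cannot be told apart from the library set.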

How the results depend on the processing

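Precision was limited by 4 trap control libraries in set 2 and by 13495835 to 25108601 counts per library in set 1. No paired analysis was possible because the groups share no replicate numbers. For each change below, the cause was not tested. For bifunctional against anti-PD-L1, the 37 genes that fell became 0 in log2(TPM + 1) and 0 in log2(TPM + 0.1), 19 without C0479 and C0484, 18 when only those 2 groups were also fitted, and 21 with host covariates. The median moved to -0.040 and -0.055 in the 2 TPM fits. All genes called, 4014 by edgeR, were 2262 and 2053 in TPM, 760 without C0479 and C0484, 727 with only those groups, 782 with covariates, 2211 in scaled TPM and 2141 to 5242 over single libraries left out.

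For bifunctional against trap control DESeq2 called 4 of the 42 genes and 129 of all genes, against 0 and 1. All genes called were 0 without a filter, in both TPM fits, with only the groups compared and without C0479 and C0484, 4 with covariates, and 0 to 2 over single libraries; the median was -0.069 and -0.076 in TPM. For anti-PD-L1 against trap control, 2 genes called became 0 without a filter, in TPM (both pseudocounts and scaled), with only the groups compared and with covariates, and 0 to 2 over single libraries.

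For trap control against isotype control, the 1 gene called became 0 without a filter, in both TPM fits and with covariates, 2 with a mean of 1 CPM and in scaled TPM, 4 with DESeq2 and in the fit of 40 libraries, and 0 to 3 over single libraries. All genes called, 1041, were 400 without a filter, 1620 with DESeq2, 3 and 2 in TPM, 1576 in the fit of 40, 281 with covariates, 643 in scaled TPM and 421 to 1381 over single libraries. For the trap control between sets, 3 genes higher became 0 in both TPM fits, and the median was -1.34, -1.84 and, scaled, -0.43. For the difference of trap effects, only C0463, C0479 and C0484 were left out singly. The 6 genes became 3 without a filter and in scaled TPM, and 0 in both TPM fits. They were 1 without C0479 and C0484, and 1 to 3 over those single libraries. All genes called, 1279, were 713 without a filter, 28 and 18 in TPM, 850 scaled, 522 without C0479 and C0484 and 781 to 952 over single libraries; the median was -0.054 and -0.040 in TPM.

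Directions turned for these genes. In bifunctional against anti-PD-L1, Lig1 was 0.022 with a mean of 1 CPM, 0.23 and 0.30 in TPM, 0.052 scaled, 0.00013 without C0479 and C0484 and -0.098 to 0.047 over single libraries. E2f1 was 0.012 with DESeq2, 0.013 with its size factors, 0.036 with a mean of 1 CPM, 0.19 and 0.29 in TPM, 0.041 scaled, 0.013 without structural RNAs, 0.011 with only the groups compared, 0.012 without C0479 and C0484, 0.0054 with both, and -0.047 to 0.033 over single libraries. In the 2 TPM fits Rfc5 was 0.017 and 0.020, Rfc1 0.16 and 0.19, and Cdt1 0.053 and 0.057. Lig1 against trap control was -0.00056 to 0.16 over single libraries. Rpa2 in anti-PD-L1 against trap control was 0.025 with covariates and -0.070 to 0.047 over single libraries. Rrm2 in set 1 was 0.0016 without structural RNAs and -0.18 to 0.10 over single libraries. Between sets, E2f1 was -0.060 and -0.12, Lig1 -0.64 and -0.88, and Tyms -1.73 and -1.95 in TPM (-0.58 scaled); Rfc1 was 0.025 with a mean of 1 CPM, 0.18 scaled and -0.037 to 0.027 over single libraries. Rpa3 in the difference of trap effects was 0.012 with a mean of 1 CPM, 0.19 and 0.28 in TPM, 0.037 scaled, 0.048 without C0479 and C0484, and -0.0023 to 0.029 over single libraries.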

Other observations

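Among replication and cell-cycle genes outside the 42, 3 subunits of the origin recognition complex were called in the comparison in which the 42 themselves had a median near 0. In trap control against isotype control tumors of set 1, 3 of 32 origin and fork factors fell by edgeR's adjusted test and none rose, where 4.15% of all genes were called lower and 3.19% higher. They were Orc4 (-0.66 ± 0.12, adjusted p = 0.013), Orc3 (-0.32 ± 0.07, adjusted p = 0.019) and Orc5 (-0.29 ± 0.09, adjusted p = 0.049). The other subunits of the complex measured, Orc2 (-0.15), Orc1 (-0.08) and Orc6 (-0.27), did not pass the test. Cmpk1, a pyrimidine nucleotide kinase, fell (-0.48 ± 0.11, adjusted p = 0.023) and Samhd1, a deoxynucleotide hydrolase, rose (0.29 ± 0.08, adjusted p = 0.039), the same sign it had in bifunctional against anti-PD-L1 tumors. None of 20 mitosis genes was called there. How the calls of these genes hold in other fits is not given here. All genes called in this comparison were 1041 by edgeR, 281 with covariates and 3 in log2(TPM + 1). They were 421 to 1381 over single libraries left out.

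For the same trap control treatment, set 1 minus set 2, 3 of 20 mitosis genes were higher and 13 lower, where 25.1% and 23.3% of all genes were, so the share higher was below that of all genes. The 3 higher were the kinetochore genes Cenpf (0.74 ± 0.20) and Cenpe (0.60 ± 0.20) and the proliferation marker Mki67 (0.53 ± 0.16), while Aurka (-0.92 ± 0.17), Ccnb1 (-0.85 ± 0.16) and Cdk1 (-0.68 ± 0.14) were lower. Cdkn1a, the p53 target that blocks entry into S phase, was higher in set 1 (1.26 ± 0.14), as was E2f8 (0.47 ± 0.13). These directions are those of the counts. In log2(TPM + 1) 80.9% of all genes were lower in set 1 and 1.85% higher, and values of these genes there are not given here.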
